A study of Homo sapiens with 6 samples.

Results

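The genes described here build and control the machine that separates chromosomes in mitosis: 58 named genes of the kinetochore, the spindle, the checkpoint and the condensed chromosome. They were taken by symbol, as the genes whose Affymetrix probe sets carry exactly 1 gene symbol and that symbol is on the list. All 58 were found, with 150 probe sets, among 18132 genes that have a probe set of their own. RNA came from HMEC-1, a human microvascular endothelial cell line immortalised with a viral large T oncoprotein, a protein that binds the RB family of cell cycle repressors. The cells were kept in serum-free medium and harvested after 24 hours. In 3 samples they had received EPC-Exos at 1e+11 particles per mL, and in the other 3 the same volume of PBS. The labels do not spell EPC-Exos out. The study is known to concern exosomes of endothelial progenitor cells. Nothing says that the replicates were separate cultures, so p-values measure the spread between arrays, which may be technical. The labels name no batch, and one that coincided with treatment cannot be told apart from it.

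A kinetochore is the protein disc that forms on each centromere and catches the ends of spindle microtubules. Its inner layer sits on chromatin that contains the histone variant CENPA, its outer layer holds microtubules through the NDC80 complex, and a fibrous corona carries the motor CENPE. Unattached kinetochores run the spindle checkpoint, which holds back the ubiquitin ligase APC/C and its activator CDC20 until every chromosome is attached. Most of these genes are transcribed in G2 and mitosis, and their RNA is a common readout of how many cells in a culture divide. In RNA of whole cultures, fewer cells in mitosis and less RNA per mitotic cell cannot be told apart.

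CENPE rose 2.38-fold after EPC-Exos and KIF20B, a kinesin of late mitosis, rose 1.77-fold. In the brightest probe set of each gene, which stands for the gene here, the other members differed by less than 1.5-fold. A dimmer probe set of CENPU fell by more than that, with a log2 change of -0.69. All 58 members had enough signal to be tested, and the lowest of their mean log2 signals, 7.55, was well above the 5.45 that a gene needed. Of the 58, 13 rose, 10 fell and 35 did not pass a Benjamini-Hochberg adjusted p under 0.05 in limma. The called share was 39.7%, against 49.1% of the 11715 genes tested. In the 2 directions it was 22.4% higher and 17.2% lower, against 21.7% and 27.3% of tested genes. At the threshold of the series' design text, a fold of 1.5 with an unadjusted p under 0.05, CENPE and KIF20B were the 2 members called, or 3.45%, against 9.89% of tested genes. The median log2 change, EPC-Exos minus PBS, was 0.049 over the members and -0.011 over all tested genes. The groups did not overlap in 23 members, against 55.7% of tested genes.

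Apart from CENPE and KIF20B, the 11 members that rose did so by 0.11 to 0.39 on the log2 scale, and the 10 that fell changed by -0.48 to -0.16. The 35 members that did not pass lay between -0.15 and 0.27, and the widest 95% bounds on any of them were -0.30 and 0.50. For 54 of the 58 the whole 95% interval lay inside a 1.5-fold change in either direction, and for 28 inside a 1.2-fold change. The exceptions at 1.5-fold were CENPE, KIF20B, CENPF and CENPU. The number that rose depended on 1 array: without PBS replicate 1 it was 22, with 9 falling. The called share of members was then 53.4%, above the 48.4% of all tested genes.

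**Figure D1:**
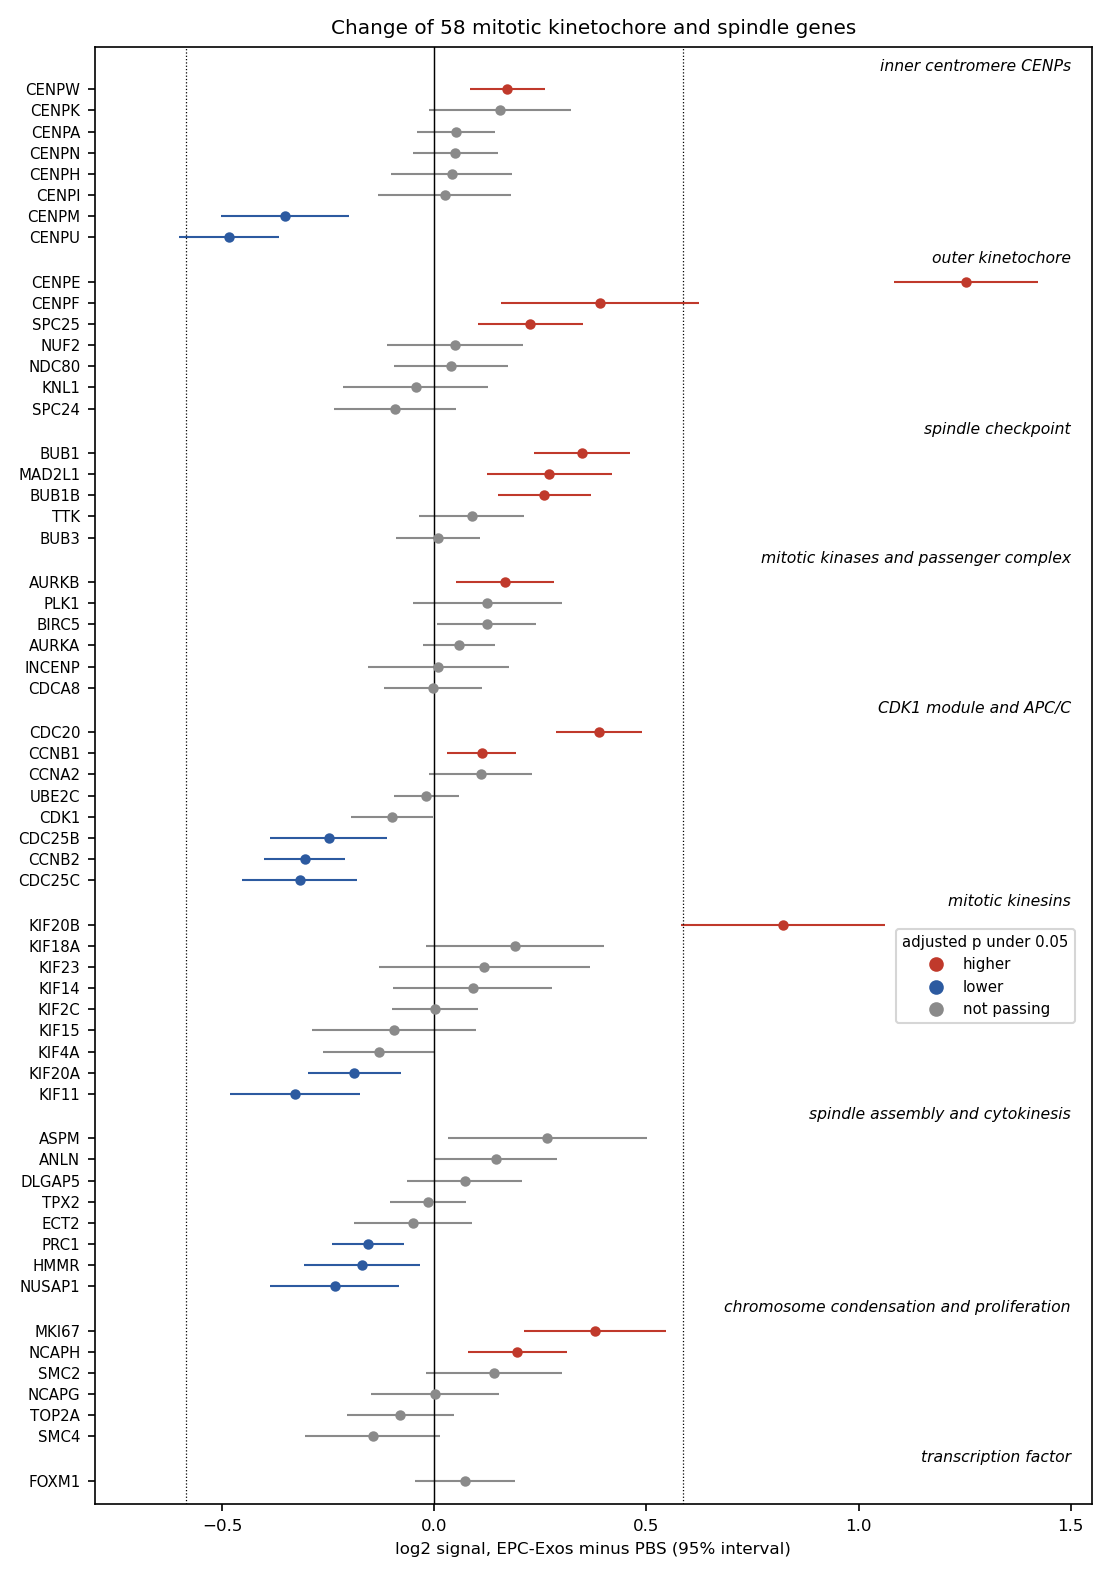
Change of each of the 58 members in log2 signal, EPC-Exos minus PBS, with limma's 95% interval, grouped by role and ordered by size within a role. Red genes were higher, blue genes lower and grey genes did not pass, and the dotted lines mark a fold of 1.5; CENPE at 1.25 and KIF20B at 0.82 lie beyond the right line.

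CENPE is a plus-end-directed kinesin of the corona that carries chromosomes along microtubules to the spindle equator. Its log2 signals were 8.54, 8.39 and 8.56 in PBS replicates 1 to 3 and 9.86, 9.56 and 9.83 in EPC-Exos replicates 1 to 3. Every EPC-Exos array was at least 1 log2 unit above every PBS array. The mean went from 8.50 ± 0.091 to 9.75 ± 0.17 (SD, n = 3), a change of 1.25 ± 0.080 (SE) with a limma adjusted p of 1.91e-09. A rise at least as large was seen in 68 of the 11715 genes tested, CENPE included, or 0.580%, and one at least as large as that of KIF20B in 218, or 1.86%. CENPE is represented by 1 probe set on this array, so its rise has no second probe set beside it.

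To set CENPE against its partners, each member was expressed as its deviation from its own PBS mean and the median of the other 57 was taken in every array. That median was 0.062, -0.032 and 0.032 in the PBS arrays and 0.045, 0.043 and 0.029 in the EPC-Exos arrays. CENPE minus the median was -0.017, -0.073 and 0.027 with PBS and 1.32, 1.02 and 1.30 with EPC-Exos, a difference of 1.24 between the group means. The median of the other members thus stayed within the spread of the PBS arrays while CENPE left it. Single members did not all do so, and a median hides opposite changes: of the 57, 12 rose and 10 fell. Taken singly, the change of CENPE exceeded that of each of the 57 others by 0.43 (KIF20B) to 1.74 (CENPU). The within-array difference did not overlap between groups in any of the 57 pairs. CENPE was chosen for this contrast with its rise known, and a gap of over 1 log2 unit leaves little room for overlap, so these differences are a description without a test.

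**Figure D2:**
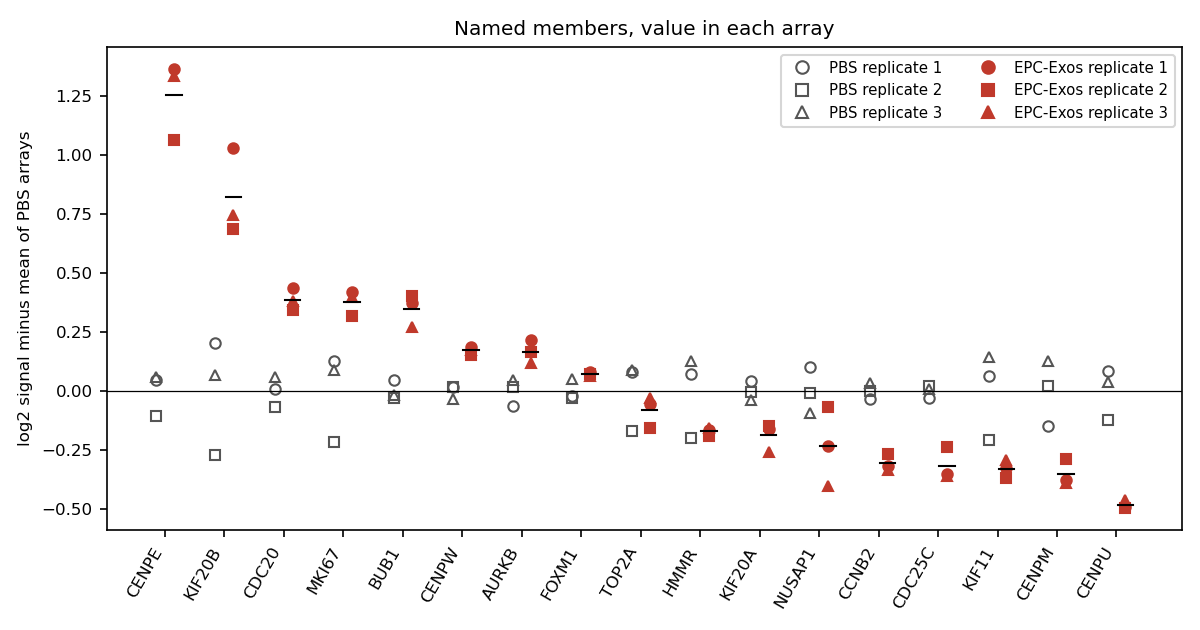
Log2 signal of 17 members in each of the 6 arrays, as the difference from the mean of the 3 PBS arrays; open grey symbols are PBS, filled red symbols EPC-Exos, and the black bar is the EPC-Exos mean. The EPC-Exos arrays of CENPE lie between 1.06 and 1.37 above the PBS mean and those of CENPU about 0.48 below it.

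Mitotic genes share short promoter elements: the cell cycle homology region (CHR), bound by the DREAM and MuvB complexes, and CCAAT boxes, bound by the factor NF-Y. RefSeq promoter windows of GRCh38.p14, 250 bases before to 50 after the start, were found for 48 of the 58 members, 59 windows in all. The CHR core TTTGAA, on either strand, was in 37 of the 59 member windows (62.7%) and in 15.2% of all 35116 windows. CCAAT, on either strand, was in 41 (69.5%) against 34.6%, and the palindromic CHR variant TTTAAA in 15 (25.4%) against 12.2%. Counted by gene, TTTGAA was present in 7 of the 13 members that rose and 6 of the 9 matched members that fell. It was in 21 of the 26 matched members that did not pass, and in 18.2% of all genes. In the same order, TTTGAA or TTTAAA was in 10, 8 and 22 members, against 27.85% of all genes. CCAAT was in 11, 9 and 17 members, against 39.7%. A match is a description of the letters in the window, not a bound site.

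The 200 bases before the start are given for the 2 members with the largest rises, CENPE and KIF20B, for CDC20, which rose, for CCNB2, which fell, and for PLK1, which did not pass. Each runs 5′ to 3′ on the gene's strand, and capitals mark the CHR core, its variant and the CCAAT box in either orientation.
CENPE, chr4:103198344-103198543, minus strand: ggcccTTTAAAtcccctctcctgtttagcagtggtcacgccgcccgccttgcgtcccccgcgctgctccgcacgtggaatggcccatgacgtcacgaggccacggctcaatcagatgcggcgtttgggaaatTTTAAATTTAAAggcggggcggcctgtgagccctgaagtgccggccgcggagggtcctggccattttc
KIF20B, chr10:89701390-89701589, plus strand: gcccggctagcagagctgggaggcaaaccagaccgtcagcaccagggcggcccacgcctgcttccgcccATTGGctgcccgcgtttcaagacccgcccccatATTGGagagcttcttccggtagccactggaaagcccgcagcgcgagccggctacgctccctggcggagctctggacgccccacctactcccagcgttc
CDC20, chr1:43358781-43358980, plus strand: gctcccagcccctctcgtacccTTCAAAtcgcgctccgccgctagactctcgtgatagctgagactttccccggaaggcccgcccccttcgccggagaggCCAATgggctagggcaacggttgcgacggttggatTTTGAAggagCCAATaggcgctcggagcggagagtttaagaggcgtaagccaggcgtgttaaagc
CCNB2, chr15:59104946-59105145, plus strand: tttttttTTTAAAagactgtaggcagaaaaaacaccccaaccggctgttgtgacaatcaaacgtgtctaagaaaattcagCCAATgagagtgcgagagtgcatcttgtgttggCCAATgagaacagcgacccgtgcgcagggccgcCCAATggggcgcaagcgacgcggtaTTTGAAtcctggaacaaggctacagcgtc
PLK1, chr16:23678689-23678888, plus strand: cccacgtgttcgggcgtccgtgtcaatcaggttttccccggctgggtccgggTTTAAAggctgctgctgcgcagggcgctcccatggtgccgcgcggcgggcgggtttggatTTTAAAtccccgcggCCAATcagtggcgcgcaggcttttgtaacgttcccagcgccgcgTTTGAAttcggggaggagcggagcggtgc

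The CENPE window held neither TTTGAA nor CCAAT. It held TTTAAA at positions -195, -68 and -62 from the start, the last pair back to back. KIF20B had CCAAT on the reverse strand at -131 and -98, and its TTTGAA matches lay after the start, at 25 and 31, outside the stretch shown. CCNB2 and PLK1 both had TTTGAA at -29, CCNB2 with CCAAT at -244, -120, -87 and -54 and PLK1 with CCAAT at -73. The variant TTTAAA was at -193 in CCNB2 and at -148 and -88 in PLK1. CDC20 had TTTGAA at -65 and, on the reverse strand, at -178, with CCAAT at -100 and -55. The CCNB2 match at -244 lies outside the stretch shown. CCNB2, which fell, and PLK1, which did not pass, thus shared the position of TTTGAA and differed in their CCAAT and TTTAAA matches. Whether these letters go with the calls was not tested.

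Counts of calls by role rest on few genes each and stand beside 21.7% of all tested genes higher and 27.3% lower. In the rest of the outer kinetochore, 2 of the 6 other members rose and 0 fell. CENPF, a large corona protein that binds dynein regulators, measured 9.16, 8.64 and 9.21 (log2) with PBS and 9.45, 9.29 and 9.44 with EPC-Exos. The change was 0.39 ± 0.11 (adjusted p = 0.00747), and its second probe set rose by 0.56 ± 0.14. SPC25, which anchors the NDC80 complex in the kinetochore, rose by 0.23 ± 0.058. The 3 partners of SPC25 in that complex did not pass, with differences of 0.039 ± 0.063 for NDC80, 0.048 ± 0.076 for NUF2 and -0.093 ± 0.068 for SPC24. KNL1, the scaffold that docks checkpoint proteins, was at -0.044 ± 0.081. Another KNL1 probe set was called higher (0.38 ± 0.10) and a further one had 0.16 ± 0.12 without a call, so the probe sets of KNL1 differ in direction.

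Among the 8 inner centromere genes, 2 fell and 1 rose. CENPU, a subunit that recruits PLK1 to the centromere, fell most of all members. Its log2 signals were 10.91, 10.70 and 10.86 with PBS and 10.33, 10.32 and 10.36 with EPC-Exos, a change of -0.48 ± 0.056 (adjusted p = 1.92e-06). Its other probe set changed by -0.69 ± 0.091. CENPM had 9.29, 9.45 and 9.56 with PBS and 9.06, 9.15 and 9.04 with EPC-Exos (-0.35 ± 0.072). In both genes every EPC-Exos array lay below every PBS array. CENPW, a histone-fold subunit, rose from 11.20, 11.20 and 11.15 to 11.37, 11.34 and 11.36 (0.17 ± 0.041). CENPA, the histone variant that defines the centromere, was at 0.051 ± 0.043, and its 4 probe sets lay between 0.033 and 0.051. CENPH, CENPI, CENPK and CENPN did not pass either, with differences of 0.024 to 0.15 in the brightest probe sets. A second probe set of CENPI was called higher (0.37 ± 0.090). For CENPN the probe sets disagreed: 1 was called higher (0.23 ± 0.070) and 1 lower (-0.34 ± 0.051).

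Of the 5 checkpoint genes, 3 rose and 0 fell, against 21.7% and 27.3% of all tested genes. BUB1, the kinase that marks centromeric chromatin and recruits other checkpoint proteins, had 10.20, 10.12 and 10.13 with PBS and 10.52, 10.55 and 10.42 with EPC-Exos. Its change was 0.35 ± 0.053 (adjusted p = 4.14e-05). BUB1B, which encodes BUBR1, a part of the inhibitor of APC/C, rose by 0.26 ± 0.052, and MAD2L1, which encodes the checkpoint protein MAD2, by 0.27 ± 0.070. All 3 tested probe sets of MAD2L1 were called higher. BUB3, the adaptor that binds BUB1 and BUBR1, was at 0.0096 ± 0.047 in its brightest probe set. A dimmer probe set that can cross-hybridise (name ending in _s_at) was higher by 0.30 ± 0.047. The same ending is carried by the brightest probe sets of the called members CDC20, HMMR and PRC1. TTK, the kinase that starts checkpoint signalling, was at 0.088 ± 0.058 and did not pass.

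CDC20, the APC/C activator that the checkpoint inhibits, rose as well. It had 10.80, 10.72 and 10.84 with PBS and 11.22, 11.13 and 11.17 with EPC-Exos, a change of 0.39 ± 0.048 (adjusted p = 4.66e-06). A second probe set gave 0.40 ± 0.060. UBE2C, the ubiquitin-conjugating enzyme of APC/C, did not pass (-0.019 ± 0.036), with 4 probe sets between -0.092 and -0.0025.

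The engine of mitotic entry moved in both directions. CDC25C, a phosphatase that activates CDK1, had 9.05, 9.10 and 9.09 with PBS and 8.73, 8.84 and 8.72 with EPC-Exos and fell by 0.32 ± 0.064 on the log2 scale. CCNB2, cyclin B2, had 11.02, 11.05 and 11.09 against 10.74, 10.79 and 10.72 and changed by -0.31 ± 0.045 (adjusted p = 3.15e-05). The related phosphatase gene CDC25B changed by -0.25 ± 0.065, with groups that overlapped. CCNB1, cyclin B1, went the other way by 0.11 ± 0.038, with an adjusted p of 0.0225. The CCNB1 call was lost in 6 of 16 alternative analyses, among them those without PBS replicate 2 or 3 and without EPC-Exos replicate 2 or 3 (adjusted p = 0.0608, 0.0622, 0.0698 and 0.0700). CDK1 itself (-0.10 ± 0.046) and CCNA2, cyclin A2 (0.11 ± 0.057), did not pass in the brightest probe sets, while the other CCNA2 probe set was called higher (0.24 ± 0.056).

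Of the 6 genes of mitotic kinases and the chromosomal passenger complex, AURKB was the 1 that rose and 0 fell. AURKB, the kinase that corrects faulty attachments, had 9.97, 10.06 and 10.08 with PBS and 10.25, 10.20 and 10.15 with EPC-Exos (0.17 ± 0.054, adjusted p = 0.0175). Its call was lost without EPC-Exos replicate 1 or 2 (adjusted p = 0.0952 and 0.0502). The other passenger genes, INCENP, BIRC5 (survivin) and CDCA8 (borealin), were at 0.0094 ± 0.078, 0.12 ± 0.055 and -0.0032 ± 0.054. AURKA, the centrosomal Aurora kinase, was at 0.058 ± 0.040 and PLK1, the polo-like kinase, at 0.13 ± 0.083. None of these 5 passed.

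The 9 mitotic kinesins other than CENPE held 1 rise and 2 falls. KIF20B, which acts in the last steps of cytokinesis, had 7.48, 7.005 and 7.34 with PBS and 8.30, 7.96 and 8.02 with EPC-Exos. The mean went from 7.27 ± 0.24 to 8.10 ± 0.18, a change of 0.82 ± 0.11 (adjusted p = 1.48e-05). The gene has 1 probe set. KIF11, the motor that pushes spindle poles apart, had 10.53, 10.25 and 10.61 against 10.14, 10.09 and 10.17 (-0.33 ± 0.073). KIF20A, a kinesin of the central spindle, had 10.52, 10.48 and 10.44 against 10.32, 10.33 and 10.22 (-0.19 ± 0.052), and without EPC-Exos replicate 3 its call was lost (adjusted p = 0.0529). KIF4A, KIF14, KIF15, KIF18A, KIF23 and KIF2C did not pass and lay between -0.13 and 0.19. KIF2C, which takes microtubules apart at the centromere, was at 0.0019 ± 0.048.

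Of 8 spindle assembly and cytokinesis genes, 3 fell and 0 rose. NUSAP1, which bundles spindle microtubules, had 10.93, 10.82 and 10.73 with PBS and 10.60, 10.76 and 10.42 with EPC-Exos. It changed by -0.23 ± 0.072, the groups overlapped, and its 3 probe sets were all called lower. That call was lost without EPC-Exos replicate 3 (adjusted p = 0.0960) and without a variance trend (adjusted p = 0.0634). HMMR, a spindle pole protein that also binds hyaluronan, had 11.48, 11.20 and 11.53 against 11.24, 11.21 and 11.25 (-0.17 ± 0.065, adjusted p = 0.0373), and its call was lost in 9 of 16 alternative analyses. PRC1, which crosslinks the central spindle, changed by -0.16 ± 0.040, a call lost with the mean of its probe sets (adjusted p = 0.0695). TPX2, ASPM, ANLN, ECT2 and DLGAP5 did not pass. Of these TPX2, which activates AURKA, was at -0.015 ± 0.042 and ASPM, a spindle pole protein, at 0.27 ± 0.11, with PBS replicate 2 (9.76) below the other PBS arrays (10.30 and 10.38).

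In the chromosome group, NCAPH, a condensin subunit, rose by 0.20 ± 0.055, a call lost with the mean of its probe sets (adjusted p = 0.192). That mean includes probe sets with mean log2 signals of 4.38 and 4.36, below the signal filter. The condensin genes SMC2, SMC4 and NCAPG did not pass (0.14 ± 0.076, -0.15 ± 0.075 and 0.0014 ± 0.071). TOP2A, the topoisomerase that untangles sister chromatids, had 11.96, 11.71 and 11.97 with PBS and 11.83, 11.72 and 11.85 with EPC-Exos. The difference was -0.080 ± 0.059 (adjusted p = 0.288); without PBS replicate 2 it was called lower, at -0.17 (adjusted p = 0.00796). MKI67, the Ki-67 antigen used as a proliferation marker, had 9.39, 9.05 and 9.35 against 9.68, 9.58 and 9.66 in its brightest probe set (0.38 ± 0.079, adjusted p = 0.000766). Of its 6 probe sets, 2 were called higher and the other 4 had differences between -0.18 and -0.078 without a call. The mean of the 6 differed by 0.027 (adjusted p = 0.772), so the MKI67 call depends on the probe set. FOXM1, the transcription factor that activates many G2 and mitosis genes, had 9.62, 9.61 and 9.69 with PBS and 9.72, 9.71 and 9.70 with EPC-Exos. The difference was 0.072 ± 0.055 (adjusted p = 0.304), with groups that did not overlap.

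Several probe sets above the signal filter were present for 37 members, which allowed the change to be compared within a gene. In 27 of them the difference had the same sign in all probe sets. In 10 they did not, and of those MKI67 was the only member with a call of its own; the others were BIRC5, CDK1, CENPN, ECT2, KNL1, NCAPG, SMC2, SMC4 and SPC24. When every probe set was tested by itself, 28 of the 141 member probe sets were called higher, 21 lower and 92 neither, against 45.8% called among all 27244 probe sets of single genes. Of the 11 called members with several probe sets, 6 had every one of them called in the member's direction. These were CENPF, CDC20, MAD2L1, CDC25C, NUSAP1 and CENPU. Of the 35 members that did not pass, 11 had another probe set with a call. It was higher in 7 (ANLN, ASPM, BIRC5, BUB3, CCNA2, CENPI and KNL1), lower in 3 (NCAPG, SMC2 and TOP2A) and of both kinds in CENPN. The test of single probe sets was added after the data were seen. The counts of agreement within a gene were made for the members only, so they have no share over all genes beside them.

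**Figure D3:**
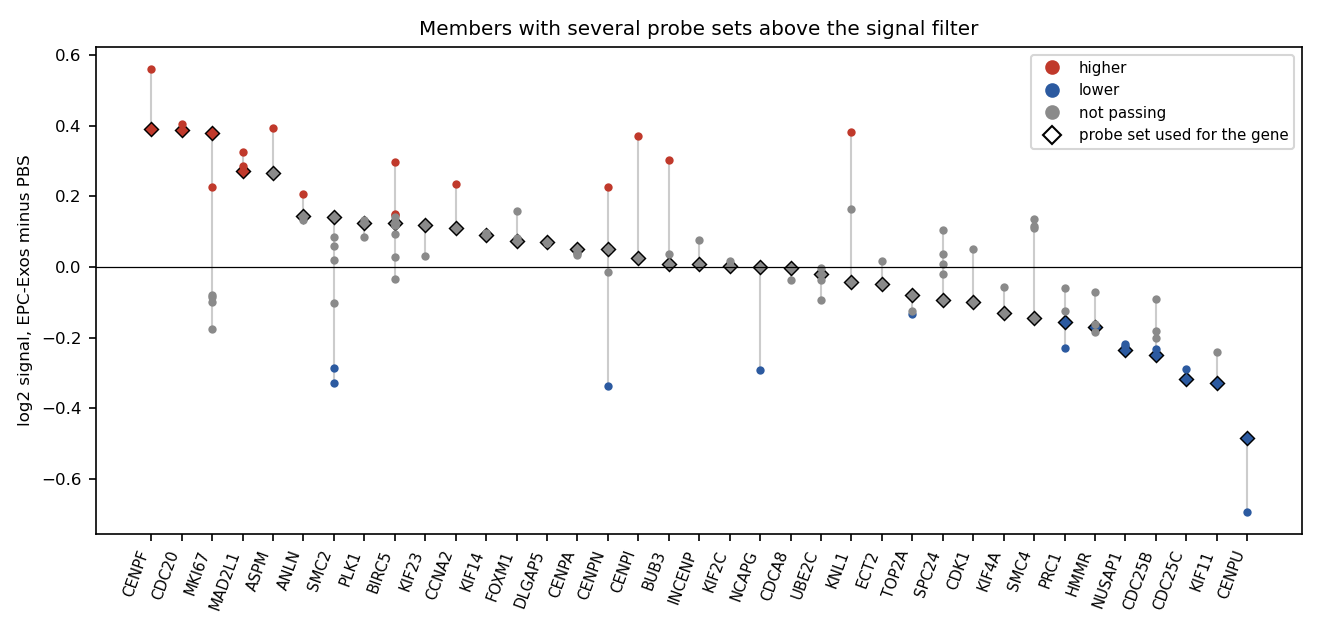
Change in log2 signal, EPC-Exos minus PBS, of every probe set above the signal filter for the 37 members that have several, ordered by the change of the probe set used for the gene (diamond). Colours give the call of each probe set; the probe sets of MKI67, SMC2, CENPN and KNL1 lie on both sides of 0, while those of CENPF, CDC20 and MAD2L1 lie above it and those of CENPU below it.

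In other genes of the same machinery, the called shares were 44.1% (kinetochore and centromere) and 46.9% (spindle, condensin and mitotic exit), against 49.1% of all tested genes. Of 34 further kinetochore and centromere genes tested (35 listed), 8 rose, 7 fell and 19 were not called; the median log2 change was -0.026. The rises numbered 5 without PBS replicate 2 or without EPC-Exos replicate 2, and the falls 4 without a variance trend. SKA3, of the complex that couples kinetochores to microtubule ends (0.52 ± 0.066), and TRIP13, an ATPase that recycles MAD2 (0.51 ± 0.045), rose most. DSN1, of the complex that links inner and outer kinetochore (-0.40 ± 0.065), and CENPS, a histone-fold subunit (-0.38 ± 0.062), fell most. No gene of this list rose as much as CENPE. Of 49 further spindle, condensin and mitotic exit genes tested (50 listed), 14 rose, 9 fell and 26 did not pass (median 0.057). The largest rises were in CDC25A, a phosphatase that activates CDKs (0.50 ± 0.067), and ANAPC1, the APC/C scaffold (0.41 ± 0.064). WEE1, the kinase that inhibits CDK1 (-0.40 ± 0.058), and KIF24, a centriolar kinesin (-0.36 ± 0.095), fell most.

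Regulators of cell cycle genes, among them those that read CHR and CCAAT elements, were examined next. Of 20 genes of the DREAM and MuvB complexes, E2F, RB family and NF-Y factors, 4 rose (20%), 7 fell (35%) and 9 were not called (median -0.12), against 21.7% higher and 27.3% lower among all tested genes. Without probe sets that can cross-hybridise (_x_at and _s_at), 4 fell. RBL2, the pocket protein p130 of the repressing DREAM complex (-0.54 ± 0.065), and E2F2, an activating E2F (-0.54 ± 0.096), fell most. E2F4, the E2F of the DREAM complex (0.50 ± 0.065), and NFYA, an NF-Y subunit (0.26 ± 0.066), rose most. The other NF-Y subunit genes, NFYB (-0.40 ± 0.061) and NFYC (-0.30 ± 0.070), fell, and MYBL2, which turns MuvB into an activator, rose (0.24 ± 0.062); these 3 were picked for mention with their values in view. The NFYA call was lost with the mean of probe sets (adjusted p = 0.198), and the NFYC call there and without the _x_at and _s_at probe sets (adjusted p = 0.282 and 0.387).

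Genes of the preceding cell cycle phase gave a median log2 change of -0.11. Of 32 G1/S and replication genes, 15 fell (46.9%), 4 rose and 13 did not pass, against 10 of 58 falls (17.2%) among the mitotic members and 27.3% of all tested genes. MCM6, a subunit of the replicative helicase (-0.67 ± 0.052), and CCNE2, cyclin E2 (-0.53 ± 0.068), fell most, and POLE2, a polymerase subunit (0.24 ± 0.065), and DBF4, the activator of the CDC7 kinase (0.19 ± 0.071), rose most. The number of rises was 1 without any single EPC-Exos array, and 2 without a variance trend or without the _x_at and _s_at probe sets. The DBF4 call was lost in 6 of 16 alternative analyses, among them those without PBS replicate 2 (adjusted p = 0.178) and without EPC-Exos replicate 1, 2 or 3 (adjusted p = 0.0572, 0.0960 and 0.102). The difference between the 2 lists was not tested.

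**Figure D4:**
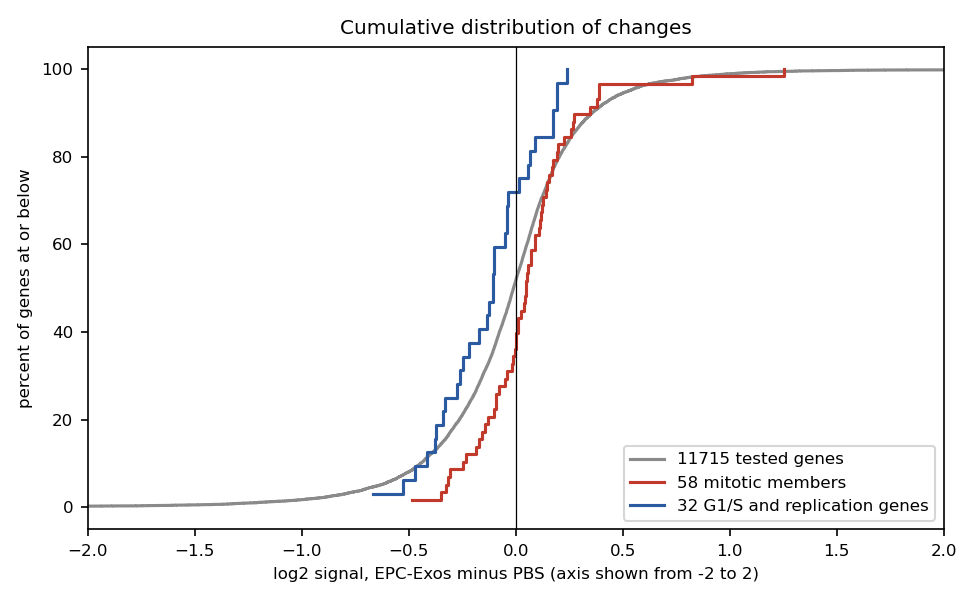
Cumulative percentage of genes against the change in log2 signal, EPC-Exos minus PBS, for all 11715 tested genes, the 58 mitotic members and 32 G1/S and replication genes. The mitotic members have a median of 0.049 with CENPE as the last step at 1.25, and the G1/S genes have a median of -0.11; the axis is shown from -2 to 2.

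Some facts of the arrays stand beside these results. Arrays of the same group correlated at 0.997 and arrays of different groups at 0.988 to 0.989. PBS replicate 2 had the lowest signal of the 3 PBS arrays in 31 of the 58 members (53.4%), against 32.0% of tested genes, and the rises of KIF20B (0.69) and MKI67 (0.27) were still called without it. The 3′ to 5′ ratio of the ACTB and GAPDH controls moved by 0.011 and 0.0092 log2 units. Of 7 tested histone genes, listed as a guide to RNA quality, 6 fell and 1 rose. Among all tested genes 27.3% were lower and 21.7% higher. The histone changes ran from -2.10 ± 0.12 for H2BC21 and -0.88 ± 0.045 for H2BC12 to 0.40 ± 0.12 for H2BC9. Their cause, RNA quality or another, was not tested. The log2 of the signal summed over the 9 histone genes on the array was 13.90 to 13.96 with PBS and 13.63 to 13.66 with EPC-Exos.

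Calls in the short marker lists stand beside 21.7% of all tested genes higher and 27.3% lower. Of 10 endothelial markers 6 were tested, and 3 rose, led by ENG (0.81 ± 0.065) and TIE1 (0.48 ± 0.10), with ESAM at 0.30 ± 0.10. The other 3, from among PECAM1, VWF, KDR and ERG, did not pass. The 4 markers below the signal filter included CDH5, TEK and CLDN5. These 3 were at or below the highest control signal for background, 4.97, in both groups. They are defining markers of the labelled cell type and were not seen. The log2 of the summed signal of all 10 was 10.00 to 10.25 with PBS and 10.69 to 10.75 with EPC-Exos. All 4 tested fibroblast and mural markers of 7 fell: DCN (-2.21 ± 0.094), ACTA2 (-1.85 ± 0.14), PDGFRB (-1.29 ± 0.12) and COL1A1 (-0.67 ± 0.057). The log2 of the signal summed over all 7 was 11.40 to 11.58 with PBS and 10.57 to 10.73 with EPC-Exos, and COL1A2 and PDGFRA were at background. Of 4 tested epithelial markers of 6, KRT18 (-0.71 ± 0.040) and KRT8 (-0.21 ± 0.060) fell, and CDH1 was at background. Summed over all 6, the log2 signal was 12.73 to 12.87 with PBS and 12.18 to 12.23 with EPC-Exos. Among 5 leukocyte markers CD68, also a lysosomal protein, was the 1 tested and rose (0.74 ± 0.072), while PTPRC, CD14 and MS4A1 were at background; the log2 of the signal summed over the 5 was 8.19 to 8.27 with PBS and 8.76 to 8.89 with EPC-Exos. These sums are of linear signals, so the brightest genes of a list weigh most in them. CD68, for example, had a mean log2 signal of 8.10 over all arrays. The part of the marker shifts in the changes of the mitotic genes was not tested.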

How the data were processed

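The table that the authors deposited holds log2 signals of 49395 probe sets on 6 arrays. MAS5 is named, per the submitters' processing notes, without a role or version, and how the values were background-corrected, summarised and scaled is not given in the sources used here. The log2 scale was taken from the range of values, 2.47 to 14.52. Array medians were 6.25 to 6.34, and no scaling was added. The number of arrays limits the precision.

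Probe sets were named through the supplied platform annotation: 44988 had 1 gene symbol, 1832 had several, and the members' probe sets were taken from the first kind. Each gene was represented by its brightest probe set over all arrays and tested if that mean reached the 40th percentile of non-control probe sets. The test was two-sided, by lmFit and eBayes with a variance trend (limma 3.58.1, R 4.3.3), with Benjamini-Hochberg adjustment over 11715 genes. Errors of changes are limma's SE, and n is 3 arrays per group. The fit was also run on simulated data with independent normal noise and few changed genes. That setting differs from these data, in which 49.1% of tested genes were called, so it does not show how the fit performs here. The values in each array are given for CENPE, FOXM1, MKI67 and TOP2A, for the largest rise and the 2 largest falls called in each role, and for CENPF, added with its value in view; where a role had no call, the member with the smallest p was taken, other members are given by role, and lists name up to 2 called genes per direction. The members, lists and rules were chosen with earlier results of these data known.

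Alternatives covered the scaling, an offset of 16, the filter, the choice of probe sets, the variance trend, the replicate block and leaving out each array. No microarray scanner files were used here. For promoter letters, RefSeq windows of GRCh38.p14 were searched on both strands.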

Additional observations from a re-analysis of the deposited data

How the results depend on the processing

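CENPE kept its direction and its call in all 16 alternative analyses, with changes of 1.20 to 1.35 on the log2 scale, and CENPE minus the median of the other members lay between 1.18 and 1.33. The settings for the filter, probe sets, variance trend and replicate block left the change of CENPE itself at 1.25. With 1 probe set, the choice of probe sets could not alter it. The median change of the members ranged from 0.021 to 0.073. The number of members that rose went from 11 to 22 when single arrays were left out, the highest without PBS replicate 1, and the number that fell from 7 to 13. At a fold of 1.5 with an unadjusted p under 0.05, 2 members rose and 0 fell by their brightest probe sets. In the remaining settings 12 to 18 rose and 8 to 12 fell. The called share of members was below that of all tested genes in most settings. The exceptions were without PBS replicate 1 (53.4% against 48.4%) and without the filter (39.7% against 32.3%). Of the called members, HMMR lost its call in 9 settings, CCNB1 in 6, AURKB and NUSAP1 in 2 each, and KIF20A, MKI67, NCAPH and PRC1 in 1 each; the causes were not tested. Of 128 counts for the other mitotic, regulator and G1/S lists, added after the data were seen, 119 stayed within 1.5 times and 9 did not. These were G1/S rises (4 to 1 without any single EPC-Exos array, to 2 without a variance trend or without _x_at and _s_at probe sets), further kinetochore rises (8 to 5 without PBS replicate 2 or EPC-Exos replicate 2) and falls (7 to 4 without a variance trend), and DREAM falls (7 to 4 without _x_at and _s_at probe sets). With the replicate number as a replicate block, 18 members rose and 11 fell, a called share of 50% against 52.2% of all tested genes. The replicate numbers were not taken as a pairing, since the deviations of same-numbered arrays correlated at 0.20, 0.18 and 0.077, although every array correlated best with its own number. Signal close to background limits none of the members, whose mean log2 signals were 7.55 or more.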

Other observations

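Outside the rule, 2 probe sets carry a member's symbol together with those of other genes. The probe set shared by KIF4A and KIF4B measured 10.02, 10.14 and 10.14 with PBS and 9.89, 9.99 and 10.00 with EPC-Exos, a difference of -0.14 in means with groups that did not overlap. KIF4A by its own probe set was at -0.13 ± 0.061 and did not pass. The probe set shared by AURKA, AURKAP1 and RAB3GAP2 had 10.89, 10.83 and 10.76 with PBS and 10.93, 10.99 and 10.88 with EPC-Exos, a difference of 0.11 with overlapping groups.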
